A study of Mus musculus with 8 samples.

Results

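The genes described here are the 45 mouse genes that build, fire and drive the DNA replication fork, from origin recognition to nucleotide supply. They were picked by gene symbol, and each was read from its brightest probe set. All 45 were measured, among 19938 genes on the arrays, and no filter on low values was applied. By role they comprise 6 origin recognition genes, 3 licensing genes, 6 MCM helicase genes, 8 helicase activation genes, 6 sliding clamp and clamp loader genes, 8 primase and polymerase genes, 4 genes of strand maturation and single-strand binding, and 4 genes of nucleotide supply.

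RNA came from flow-sorted bone marrow cells of C57BL/6J mice, either wild type (WT) or carrying ∆Hmga2, called TG in the sample titles, in a series on overexpression of the chromatin protein HMGA2. KLS cells, by the field's usage Kit-positive, lineage-negative and Sca-1-positive, hold the stem cells and multipotent progenitors, and MEP cells are the progenitors of megakaryocytes and red cells. The 4 groups, WT KLS, TG KLS, WT MEP and TG MEP, had 2 arrays each, and every array held a separate RNA preparation pooled from 4 or 6 mice. No other allele or agent is named in the labels, and the sources used here give neither the age of the mice, nor the promoter that drives ∆Hmga2, nor the number of transgenic lines.

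Replication is prepared in G1, when the origin recognition complex binds DNA and, with Cdc6 and Cdt1, loads the ring-shaped MCM helicase. In S phase the Cdc7 kinase with its partner Dbf4 triggers the joining of Cdc45 and the GINS complex, and the active helicase then unwinds DNA for the primase and polymerases. Transcription of many of these genes is driven by E2F factors when the retinoblastoma brake is released, so their RNA is widely read as a trace of cycling cells. In bone marrow, long-term stem cells are mostly quiescent, whereas multipotent and erythroid progenitors divide often.

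Promoter windows show what these genes share in sequence. RefSeq promoters of the GRCm38.p6 build, from 250 bases before to 50 bases after each start site, were held for 37 of the 45 genes in 46 windows. Entries were missing for Gins1, Gins2, Gins4, Mcm4, Gmnn, Pole, Prim2 and Rfc2. An E2F-type match, TTTGGCG or TTTCCCG on either strand, lay in the windows of 18 of the 37 genes, or 48.6%, against 5.55% of all 27025 genes of the table and 7.29% of the 15614 that were measured on these arrays. A CCAAT box, the letters CCAAT on either strand, was found for 22 of the 37, or 59.5%, against 41.7% of the measured genes. The CHR-type letters TTTGAA or TTCGAA on either strand were found for 9 of the 37, or 24.3%, against 19.0% of the measured genes. The motifs were searched separately, so that matches of different kinds may overlap. E2F-type sequences other than TTTGGCG and TTTCCCG were not searched, so the E2F-type counts do not cover every such sequence.

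The 160 bases before the start site are printed for 5 genes, 5′ to 3′ on the gene's own strand, with the motif matches in capitals. Orc1 (chr4:108579294-108579453, plus strand) is shown because it was the gene that passed the test between cell types. Cdc6 (chr11:98907991-98908150, plus strand), Gins3 (chr8:95633399-95633558, plus strand) and Fen1 (chr19:10204394-10204553, minus strand) are examples of genes whose KLS and MEP arrays did not overlap. Mcm6 (chr1:128359706-128359865, minus strand) is an example of genes whose arrays overlapped. These 4 all hold an E2F-type match, as did only 6 of the 14 genes without overlap that had a promoter entry and 12 of the 23 others. They do not represent those shares.
Orc1: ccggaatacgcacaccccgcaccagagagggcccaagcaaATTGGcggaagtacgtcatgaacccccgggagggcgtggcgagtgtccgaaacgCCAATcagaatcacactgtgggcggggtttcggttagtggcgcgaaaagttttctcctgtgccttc
Cdc6: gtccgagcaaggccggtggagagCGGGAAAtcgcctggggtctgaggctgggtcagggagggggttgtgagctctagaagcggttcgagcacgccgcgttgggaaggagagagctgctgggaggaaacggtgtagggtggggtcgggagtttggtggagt
Gins3: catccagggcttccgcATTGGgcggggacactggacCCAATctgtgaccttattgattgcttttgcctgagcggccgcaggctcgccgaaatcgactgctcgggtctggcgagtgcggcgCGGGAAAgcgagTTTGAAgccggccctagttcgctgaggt
Fen1: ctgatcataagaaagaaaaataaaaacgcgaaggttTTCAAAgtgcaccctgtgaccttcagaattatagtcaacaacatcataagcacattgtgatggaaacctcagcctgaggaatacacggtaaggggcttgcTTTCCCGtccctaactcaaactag
Mcm6: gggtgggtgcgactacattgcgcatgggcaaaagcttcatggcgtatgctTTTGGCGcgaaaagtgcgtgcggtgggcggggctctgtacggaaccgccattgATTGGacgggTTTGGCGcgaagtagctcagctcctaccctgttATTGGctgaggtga
In these stretches TTTGGCG occurs only in Mcm6, while Cdc6 and Gins3 hold CGGGAAA, which is TTTCCCG on the other strand, and Fen1 holds TTTCCCG itself. The Orc1 stretch shows CCAAT in both orientations and neither TTTGGCG nor TTTCCCG. Other E2F-type sequences were not searched, so it cannot be said to lack them. A match is a description of letters and not a bound site.

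Before the results, the arrays were checked against their labels. Of 6 measured stem and multipotent progenitor genes, 5 passed the test as higher in KLS cells, while the Sca-1 gene Ly6a had no usable probe set. Of 10 megakaryocyte-erythroid genes, Tfrc, the transferrin receptor, and Rhd, a blood group gene, passed as lower in KLS cells, and 7 of the 10 were below 0. Those above 0 were the platelet genes Pf4, at 1.57 with a limma adjusted p of 0.0686, and Itga2b, at 0.27, and the transcription cofactor gene Zfpm1, at 0.12. Neutrophil and monocyte genes passed as higher in KLS cells for 7 of 13. The mean log2 level of the 13 was 9.99 to 10.55 in KLS samples and 7.98 to 9.30 in MEP samples. The list holds primary granule genes of myeloid progenitors, such as Mpo, beside late granule genes, such as Camp. It does not stand for mature cells alone. WT MEP array 1 stood apart, with a mean over 12 lymphoid genes of 8.05 against 6.17 to 6.37 on the other arrays of MEP cells and 6.83 to 7.39 on those of KLS cells. The part of cells outside the gates in the results below was not tested.

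Across the module, RNA levels were lower in KLS than in MEP cells by a small amount in nearly every gene, and Orc1 alone passed the test. The difference, KLS minus MEP averaged over genotypes on the log2 scale, was below 0 for 42 of the 45 genes, against 46.5% of all genes. Its median was -0.23, against 0.01 for all genes, and single genes ran from -0.65 for Orc5 to 0.13 for Gins2. With limma and Benjamini-Hochberg adjustment over all genes, 1 of the 45 passed at an adjusted p under 0.05, and 1.6% of all genes passed in either direction, 0.396% as lower in KLS cells. At an unadjusted p under 0.05, 18 of the 45 were lower in KLS cells, against 6.24% of all genes.

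The arrays themselves show for which genes the cell types overlapped. For 18 of the 45 genes all 4 KLS arrays lay below all 4 MEP arrays, against 4.63% of all genes, and for none did all KLS arrays lie above, against 4.41% of all genes. These 18 were Orc1, Orc5, Cdc6, Gmnn, Mcm4, Gins1, Gins3, Cdc7, Dbf4, Pcna, Pola1, Prim1, Prim2, Pole2, Fen1, Rpa1, Rrm1 and Rrm2. Such a count does not give the size of the gap. The highest KLS and lowest MEP arrays read 9.632 and 9.636 for Gins1, and 12.42 and 12.45 for Pcna. Centring each array on its median in place of quantile normalization left 11 such genes, with 4.33% of all genes, and leaving out each array gave 18 to 24; WT arrays alone and TG arrays alone, where 2 arrays face 2, gave 26 each, with 16.0% and 20.7% of all genes. With median centring the number below 0 stayed at 42, with 56% of all genes. In bulk RNA of sorted cells, fewer cells in S phase and less RNA per cell cannot be told apart. The E2F-type match was held by 6 of the 14 separated genes with a promoter entry and by 12 of the 23 others.

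**Figure D1:**
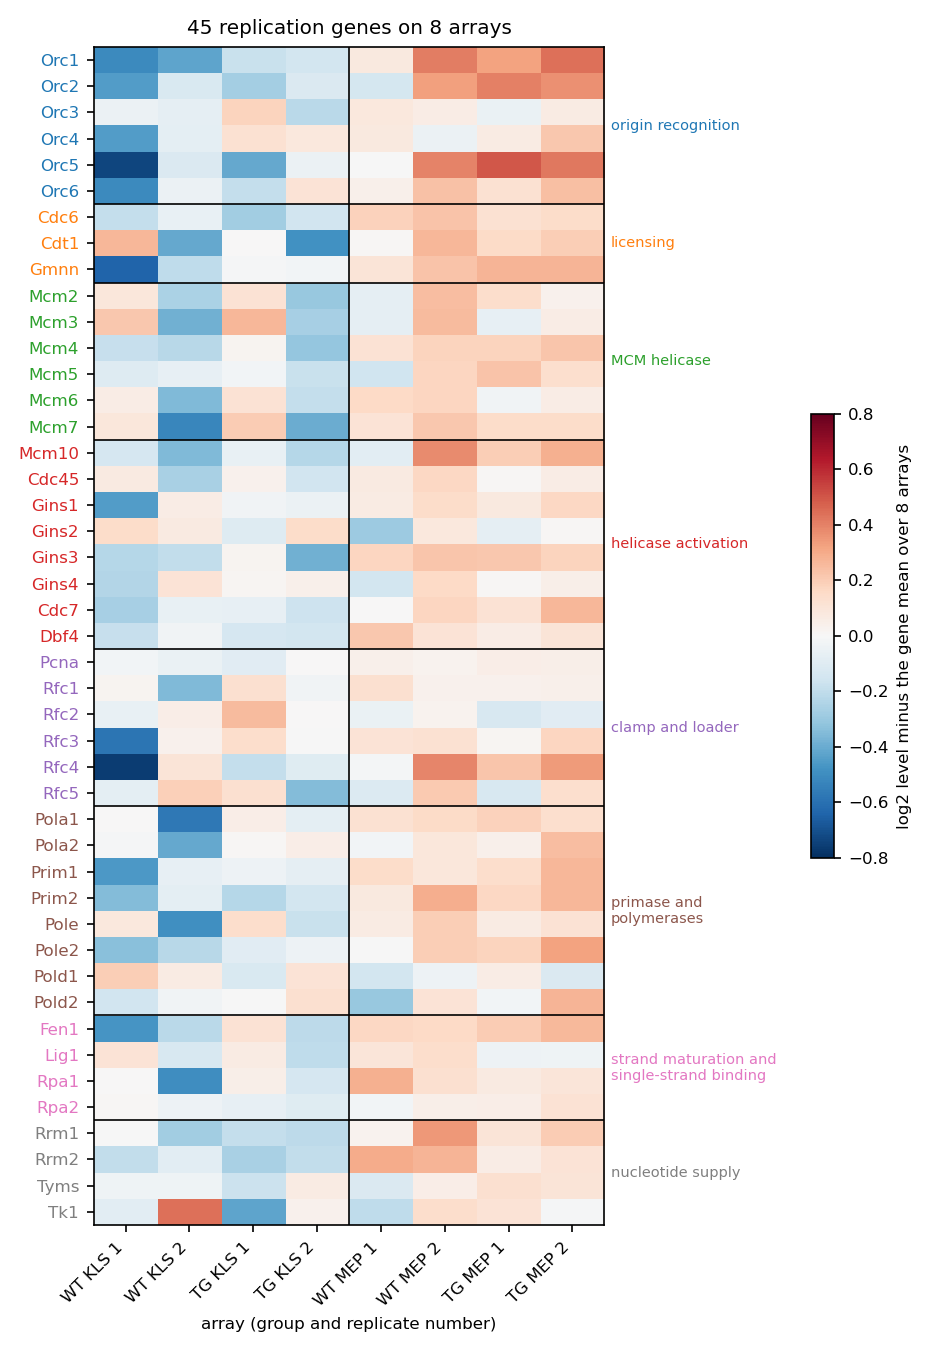
Level of each of the 45 genes on each of the 8 arrays, as the log2 value minus that gene's mean over all arrays (colour scale), with genes in rows ordered by role and arrays in columns. Most genes are below their mean on the KLS arrays and above it on the MEP arrays, and WT KLS array 1 and array 2 differ from each other in several roles.

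**Figure D2:**
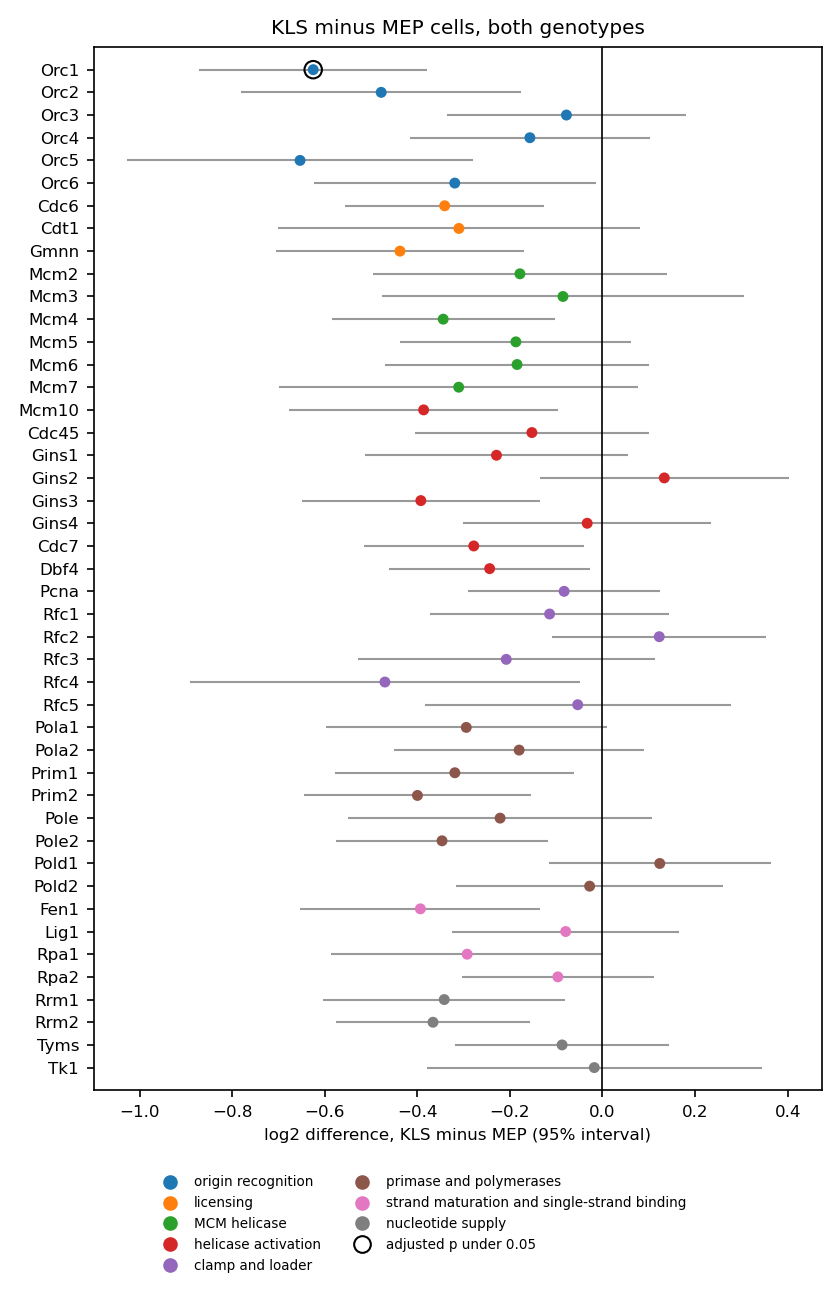
The log2 difference KLS minus MEP for each gene (points, coloured by role) with its 95% confidence interval from limma (lines). The points of 42 of the 45 genes lie left of 0, and 18 intervals exclude 0 before adjustment.

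The origin recognition complex, which marks the sites where replication can begin, had the lowest median of the 8 roles, -0.40, with all 6 subunits below 0. Orc1, the subunit that the cell supplies and removes with the cycle, read 7.41 and 7.50 in WT KLS, 7.74 and 7.77 in TG KLS, 7.99 and 8.32 in WT MEP, and 8.24 and 8.35 in TG MEP cells. Every KLS array was therefore below every MEP array. The difference was -0.62 ± 0.11 (SE, 95% interval -0.87 to -0.38, 4 arrays per cell type), or 1.54-fold lower in KLS cells, with a limma adjusted p of 0.0362. That call was lost when any array other than WT MEP array 1 was left out, with adjusted p values of 0.0646 to 0.141, and with median centring, at an adjusted p of 0.0577. Without WT MEP array 1 the adjusted p was 0.0137, and Orc2 passed as well at 0.0468.

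Orc5, another core subunit, had the largest difference of the 45 genes. It read 7.97 and 8.58 in WT KLS, 8.29 and 8.66 in TG KLS, 8.70 and 9.10 in WT MEP, and 9.20 and 9.12 in TG MEP cells. The cell types did not overlap, but WT KLS array 1 was far below its partner. The difference was -0.65 ± 0.16 (SE), with a limma adjusted p of 0.0948. Orc2 read 9.73 and 10.05 in WT KLS, 9.90 and 10.06 in TG KLS, 10.04 and 10.50 in WT MEP, and 10.58 and 10.54 in TG MEP cells. Only WT MEP array 1 reached into the KLS range, and the difference of -0.48 ± 0.13 (SE) had a limma adjusted p of 0.126. Orc3 was the subunit nearest to 0, at -0.08 ± 0.11 (SE), with KLS arrays from 9.90 to 10.30 around MEP arrays from 10.06 to 10.20.

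The 3 licensing genes, which load the MCM ring or restrain its loading, were all below 0, with a median of -0.34. Cdc6, the loading ATPase, read 8.81 and 8.94 in WT KLS, 8.73 and 8.85 in TG KLS, 9.19 and 9.23 in WT MEP, and 9.13 and 9.15 in TG MEP cells. Replicates lay close together and the cell types were clearly separate, with a difference of -0.34 ± 0.09 (SE) and a limma adjusted p of 0.125. Gmnn encodes geminin, the inhibitor that binds Cdt1 and blocks a second round of licensing. Its levels were 8.67 and 9.10 in WT KLS, 9.30 and 9.29 in TG KLS, 9.41 and 9.54 in WT MEP, and 9.58 on both TG MEP arrays. WT KLS cells were lowest and MEP cells highest, and the difference between cell types was -0.44 ± 0.12 (SE, limma adjusted p 0.113). Cdt1, the target of geminin, read 7.24 and 6.57 in WT KLS and 6.98 and 6.49 in TG KLS against 6.98 to 7.24 in MEP cells, so that the first KLS array of each genotype stood at an edge of the MEP range and the other below it. The difference of -0.31 was -0.48 without WT KLS array 1 and -0.14 without WT KLS array 2.

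The 6 MCM subunits, which form the helicase ring itself, were all below 0, with a median of -0.19, but only Mcm4 had separate arrays. Mcm4 read 9.33 and 9.29 in WT KLS, 9.54 and 9.21 in TG KLS, 9.63 and 9.69 in WT MEP, and 9.69 and 9.73 in TG MEP cells. The highest KLS array still lay below the lowest MEP array, and the difference was -0.34 ± 0.11 (SE, limma adjusted p 0.159). Mcm3 was nearest to 0, at -0.09 ± 0.17 (SE). Its KLS arrays lay on both sides of the MEP arrays, at 9.41 and 8.81 in WT and 9.46 and 8.93 in TG cells, against 9.13 to 9.45 in MEP cells. Mcm2, Mcm5, Mcm6 and Mcm7 had differences between -0.31 and -0.18.

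Among the 8 helicase activation genes, 7 were below 0, with a median of -0.24. Gins3, a GINS subunit, read 7.79 and 7.82 in WT KLS, 8.04 and 7.63 in TG KLS, 8.19 and 8.24 in WT MEP, and 8.23 and 8.20 in TG MEP cells. The MEP arrays lay close together above all KLS arrays, and the difference was -0.39 ± 0.11 (SE, limma adjusted p 0.135). The other GINS subunits did not follow a common size, with Gins1 at -0.23, Gins4 at -0.03 and Gins2 at 0.13. Gins4 read 9.70 to 10.04 in KLS and 9.78 to 10.09 in MEP cells, an almost full overlap. Cdc7 and Dbf4, the kinase and its activator, had differences of -0.28 and -0.24, and the arrays of each were separate. Mcm10 and Cdc45, which bind the helicase as it is activated, had -0.39 and -0.15.

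The sliding clamp and its loader showed the weakest shift, with a median of -0.10 and 5 of 6 genes below 0. Pcna, the clamp that holds polymerases on DNA, read 12.33 to 12.42 in KLS and 12.45 to 12.47 in MEP cells. These ranges were separate, but the difference was only -0.08 ± 0.09 (SE, limma adjusted p 0.811). Rfc4, a clamp loader subunit, read 8.89 and 9.76 in WT KLS, 9.46 and 9.55 in TG KLS, 9.64 and 10.04 in WT MEP, and 9.88 and 9.99 in TG MEP cells. The WT KLS pair lay on both sides of the TG KLS pair, and the difference of -0.47 ± 0.19 (SE) had a limma adjusted p of 0.285. It was -0.25 without WT KLS array 1 and -0.69 without WT KLS array 2. Rfc5 was nearest to 0 at -0.05 ± 0.15 (SE), and Rfc2 was above 0 at 0.12.

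Of the 8 primase and polymerase genes, 7 were below 0, with a median of -0.26. Prim2, the large primase subunit, read 8.11 and 8.38 in WT KLS, 8.23 and 8.31 in TG KLS, 8.54 and 8.75 in WT MEP, and 8.62 and 8.72 in TG MEP cells. Its arrays were separate by cell type, with a difference of -0.40 ± 0.11 (SE, limma adjusted p 0.116). Pole2, a subunit of the leading-strand polymerase epsilon, read 8.50 and 8.61 in WT KLS, 8.74 and 8.79 in TG KLS, 8.83 and 9.03 in WT MEP, and 9.01 and 9.16 in TG MEP cells. The group means stood in that order, and the difference between cell types was -0.35 ± 0.10 (SE, limma adjusted p 0.137). The catalytic primase gene Prim1 and the polymerase alpha gene Pola1 were also separate, at -0.32 and -0.29. The polymerase delta genes lay apart from these in size, with Pold1 at 0.12 and Pold2 at -0.03, and their KLS and MEP arrays overlapped.

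For strand maturation and single-strand binding, all 4 genes were below 0, with a median of -0.19. Fen1, the flap nuclease that trims Okazaki fragments, read 8.18 and 8.44 in WT KLS, 8.77 and 8.44 in TG KLS, 8.82 on both WT MEP arrays, and 8.86 and 8.92 in TG MEP cells. One TG KLS array came close to the MEP arrays without reaching them, and the difference was -0.39 ± 0.11 (SE, limma adjusted p 0.136). Lig1, the ligase that seals the fragments, was at -0.08 ± 0.11 (SE), with KLS arrays from 9.18 to 9.50 and MEP arrays from 9.34 to 9.53. Rpa1, a subunit of the single-strand binding protein, was at -0.29 with separate arrays.

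All 4 nucleotide supply genes were below 0, with a median of -0.21, the ribonucleotide reductase genes further than those of the thymidylate enzymes. The difference between these enzymes was not tested. Rrm2, the small subunit of ribonucleotide reductase, read 10.35 and 10.46 in WT KLS, 10.29 and 10.35 in TG KLS, 10.84 and 10.82 in WT MEP, and 10.60 and 10.65 in TG MEP cells. The cell types were separate and replicates close, with a difference of -0.37 ± 0.09 (SE, limma adjusted p 0.0949). The large subunit gene Rrm1 was at -0.34 with separate arrays. Tyms, thymidylate synthase, was at -0.09, and Tk1, thymidine kinase, at -0.02 ± 0.16 (SE). The probe sets of Tk1 disagreed, the dimmer one giving -0.20, whereas those of Pcna gave -0.08 and -0.10.

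**Figure D3:**
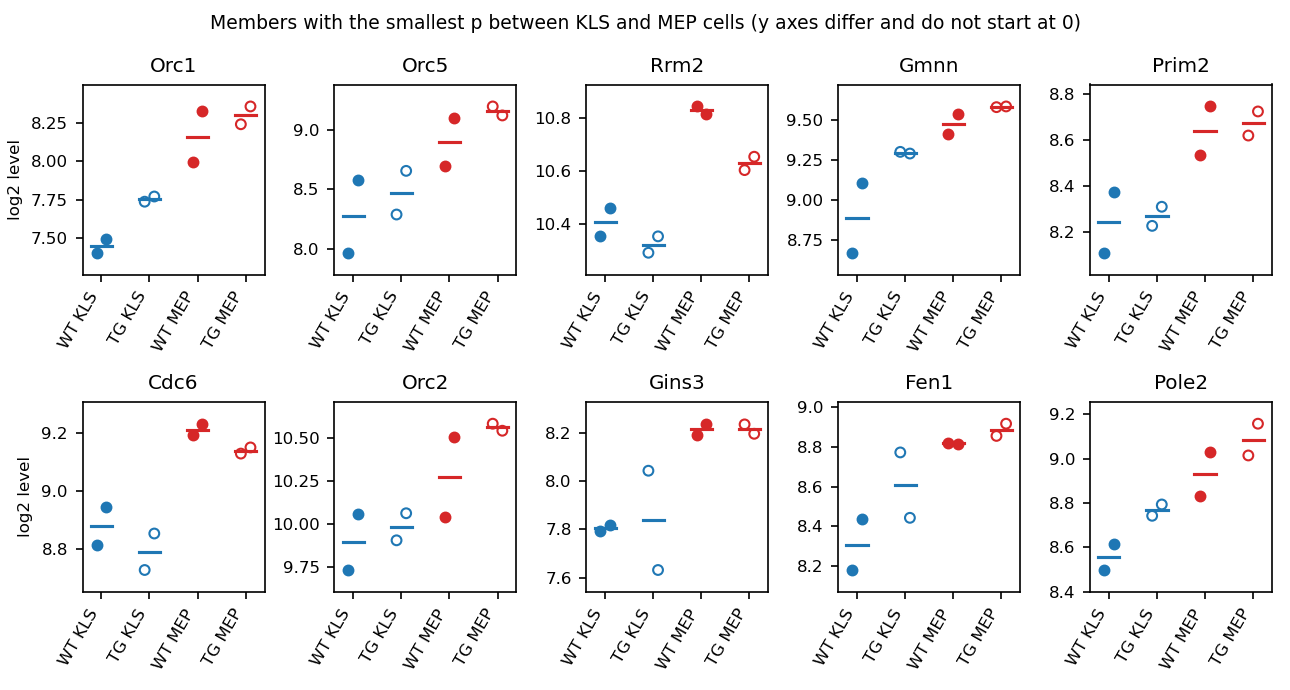
Log2 level on each array, by group, for the 10 genes of the module with the smallest p between KLS and MEP cells. Filled points are WT, open points TG, blue KLS and red MEP cells, and bars are the mean of 2 arrays. Orc1, Cdc6 and Rrm2 show separate cell types, whereas in Orc2 WT MEP array 1 lies within the KLS range.

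The difference between cell types could be read within each genotype on arrays that the other genotype did not use. KLS minus MEP was below 0 in WT and in TG cells for 36 of the 45 genes, against 27.1% of all genes. It was above 0 in both for Gins2, Rfc2 and Pold1, and opposite in sign for Mcm3, Gins4, Rfc1, Rfc5, Pold2 and Tk1. The median was -0.30 in WT cells and -0.19 in TG cells, against 0.03 and -0.002 for all genes. Across the 45 genes the WT and TG differences correlated with r = 0.631, and across all genes with r = 0.561; genes on shared arrays are not independent, and the arrays were normalized together. The interaction, in which TG minus WT in MEP cells is taken from TG minus WT in KLS cells, passed the test for no gene of the module.

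Between genotypes, no replication gene passed the limma test in either cell type, averaged over both or in the interaction, and neither did any other gene, so the background was 0%. At an unadjusted p under 0.05, 1 of the 45 genes was found in KLS cells, where 2.51% of all genes were, and 0 in MEP cells, over both and in the interaction, where 3.71%, 3.26% and 2.27% of all genes were. That gene was Gmnn, whose TG KLS arrays, 9.30 and 9.29, lay above the WT KLS arrays, 8.67 and 9.10. The difference was 0.41 ± 0.17 (SE, 95% interval 0.03 to 0.79), with an adjusted p of 1.00 by limma, and it was 0.19 without WT KLS array 1 and 0.63 without WT KLS array 2.

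In KLS cells, TG minus WT was above 0 for 30 of the 45 genes, against 45.8% of all genes, with a median of 0.09 against -0.02 for all genes. All 6 origin recognition genes were above 0 (median 0.22), and all 4 nucleotide supply genes below (median -0.07). Orc4, an origin recognition subunit, read 8.91 and 9.28 in WT and 9.47 and 9.44 in TG KLS cells, a difference of 0.36 ± 0.16 (SE) that was 0.18 without WT KLS array 1 and 0.55 without WT KLS array 2. Orc1, given above, differed by 0.30 ± 0.15 (SE). Arrays of the genotypes did not overlap for 7 genes higher and 1 lower in TG KLS cells, against 11.7% and 17.2% of all genes. The count above 0 was 40 with the values as deposited and 41 with median centring, against 46.6% and 53.5% of all genes, and 24 to 34 when each array was left out. Among lineage genes outside the module, 12 of 12 lymphoid genes were below 0 in TG minus WT, with a median of -0.27. So were 4 of 4 late erythroid genes, with a median of -0.48, and 8 of 13 neutrophil and monocyte genes, with a median of -0.08. By mean log2 level per array, WT and TG KLS cells ran from 7.02 to 7.39 and from 6.83 to 6.95 for the lymphoid genes, and from 8.35 to 9.13 and from 7.94 to 8.44 for the late erythroid genes. None of these genes passed the limma test, and their part in the result was not tested.

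In MEP cells the count above 0 depended on the scaling, also when set beside all genes. TG minus WT was above 0 for 29 of the 45 genes, against 48% of all genes, but for 13 with the values as deposited, 11 with median centring and 18 without WT MEP array 1, against 53.4%, 47.7% and 39% of all genes. Among lineage genes outside the module, TG minus WT was below 0 for 13 of 13 neutrophil and monocyte genes (median -0.80, 12 with separate arrays). It was also below 0 for 11 of 12 lymphoid genes (median -1.16) and 4 of 4 late erythroid genes (median -1.32, all with separate arrays). The mean log2 level of the late erythroid genes was 9.49 and 9.15 on the WT MEP arrays and at most 8.31 on the TG MEP arrays, and that of the neutrophil and monocyte genes 9.30 and 8.65 against 7.98 and 8.20. None of these genes passed the limma test, and their part in the result was not tested. The 3 replication genes with the smallest unadjusted p were Rrm2 at -0.20 ± 0.13 (SE), Orc2 at 0.29 ± 0.19 (SE) and Pold2 at 0.22 ± 0.18 (SE). Without WT MEP array 1 they were at -0.19, 0.06 and 0.02, and without WT MEP array 2 at -0.22, 0.52 and 0.43. Pold2 read 7.93 and 8.34 in WT and 8.21 and 8.50 in TG MEP cells, which overlap. Arrays did not overlap for 8 genes higher and 8 lower in TG, against 13% and 17.2% of all genes. The median width of the 95% interval within a cell type was 0.738, so a genotype difference as small as the median difference between cell types was not detectable for a gene with an interval of that width.

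Averaged over both cell types, TG minus WT was above 0 for 30 of the 45 genes, against 46% of all genes, and the TG and WT arrays overlapped for all 45, while 1.02% of all genes were lower and 0.582% higher in TG without overlap. The interaction was above 0 for 28 of the 45, against 50.6% of all genes. Over both cell types, the smallest unadjusted p values belonged to Gmnn, Orc4 and Orc1, at 0.26, 0.24 and 0.22; without WT KLS array 1 they were at 0.15, 0.15 and 0.20, and Orc1 was at 0.14 without WT MEP array 1. In the interaction they belonged to Tk1 at -0.45 ± 0.32 (SE), Rfc3, a clamp loader subunit, at 0.37 ± 0.28 (SE) and Gmnn at 0.30 ± 0.24 (SE). Rfc3 read 8.89 and 9.51 in WT KLS, 9.61 and 9.47 in TG KLS, 9.58 and 9.60 in WT MEP, and 9.49 and 9.65 in TG MEP cells. WT KLS array 1 was the lowest, and without it the interaction was 0.06 for Rfc3, 0.08 for Gmnn and -0.71 for Tk1. Without WT KLS array 2 it was 0.67, 0.52 and -0.19 in that order. The dimmer probe set of Tk1 gave an interaction of -0.13, and which of its probe sets measures Tk1 was not checked. Of the 45 genes, 20 were above 0 in both cell types, 6 below in both, 10 above in KLS and below in MEP cells, and 9 the reverse.

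**Figure D4:**
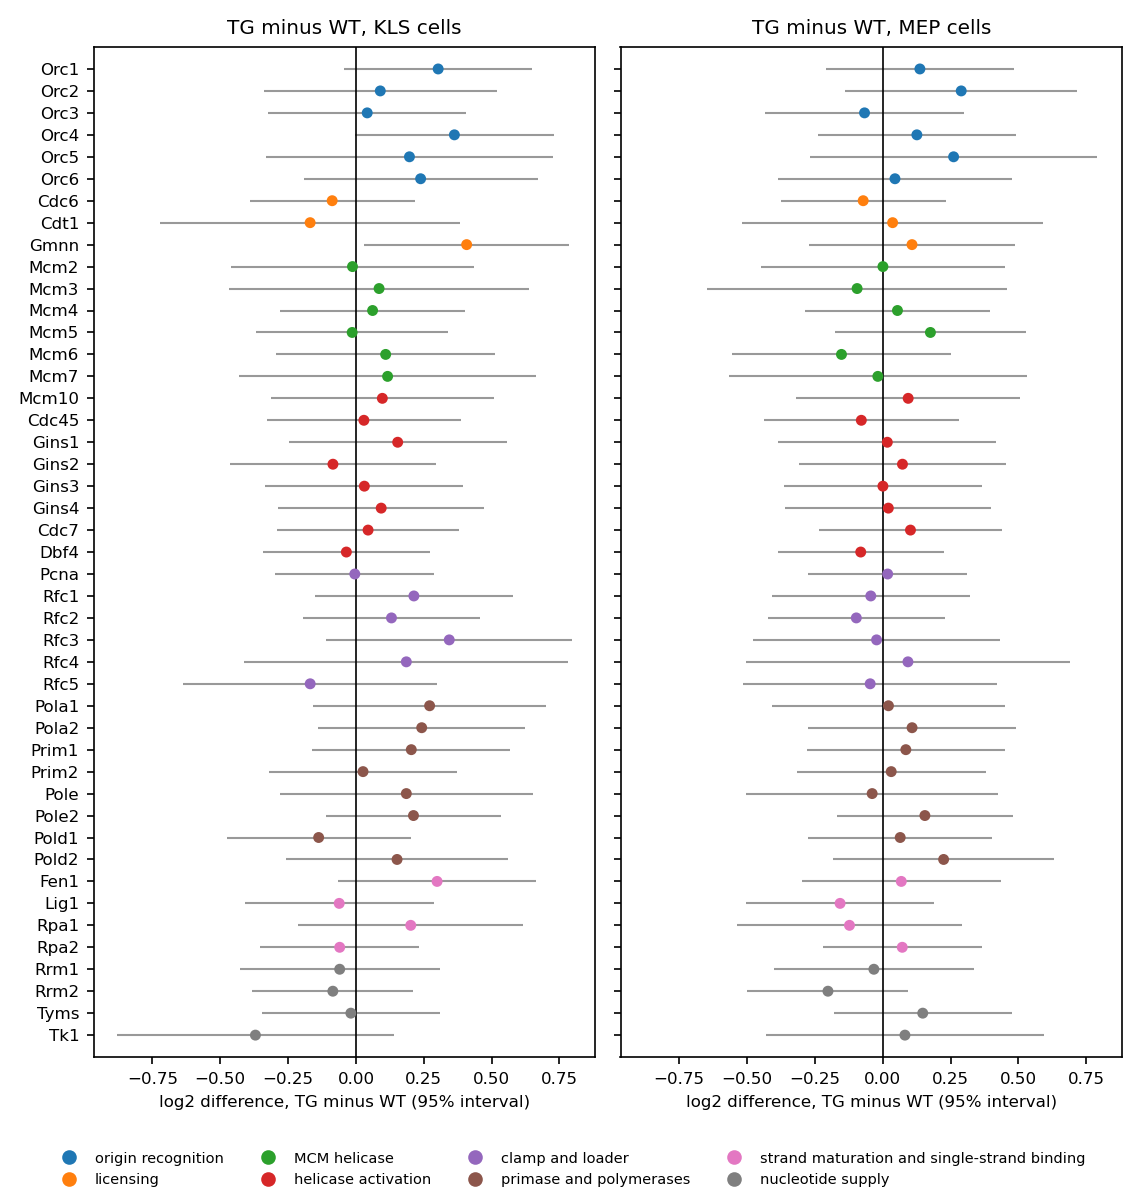
The log2 difference TG minus WT in KLS cells (left) and MEP cells (right) for each gene (points, coloured by role) with its 95% confidence interval from limma (lines). In KLS cells 30 points and in MEP cells 29 points lie right of 0, and apart from Gmnn in KLS cells every interval spans 0.

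Over the 45 genes, replicates differed most in WT KLS cells, whereas over all genes they differed most in WT MEP cells. The median gap between the arrays of a group was 0.271 over the 45 genes in WT KLS, 0.161 in TG KLS, 0.127 in WT MEP and 0.082 in TG MEP cells, against 0.184, 0.171, 0.192 and 0.151 over all genes. Gaps over 0.5 were seen for 10, 2, 0 and 0 of the 45 genes in that order.

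The KLS arrays numbered 1 and 2 differed alike in both genotypes for part of the module, a pattern noted after the values were seen. Mcm2, Mcm3, Mcm6, Mcm7, Cdt1 and Pole were higher by over 0.3 on array 1 in WT and in TG cells, 6 of 45 genes, against 7.2% of all genes. Orc5, Orc6 and Tk1 were lower by over 0.3, 3 of 45, against 2.3% of all genes. Mcm7 read 9.29 and 8.68 in WT KLS and 9.40 and 8.80 in TG KLS cells, beside 9.31 and 9.41 in WT MEP and 9.34 on both TG MEP arrays. The mean of the 6 MCM genes was 9.48 and 9.15 in WT KLS and 9.57 and 9.18 in TG KLS cells, against 9.47 to 9.66 on the MEP arrays, so that this mean lay within the MEP range on array 1 of each genotype. Not every subunit did so, since Mcm4 was below all MEP arrays on each KLS array. Across the 45 genes the WT and TG gaps correlated with r = 0.554 (rho = 0.513), and across all genes with r = 0.385. Of the 13 neutrophil and monocyte genes, 6 were higher on array 1 in WT and in TG KLS cells, among them Mpo, a primary granule enzyme, at 12.79 and 11.53 in WT and 12.94 and 11.69 in TG KLS cells. Another 3 were lower on array 1 in both, among them Camp, a late granule gene, at 10.33 and 11.54 in WT and 10.60 and 10.69 in TG KLS cells, and 4 were opposite in sign. The mean of the 13 was 10.39 and 10.36 in WT and 10.55 and 9.99 in TG KLS cells. The part of cells that carry this RNA in the split was not tested. The labels do not say that arrays of the same number share a day or a pool.

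**Figure D5:**
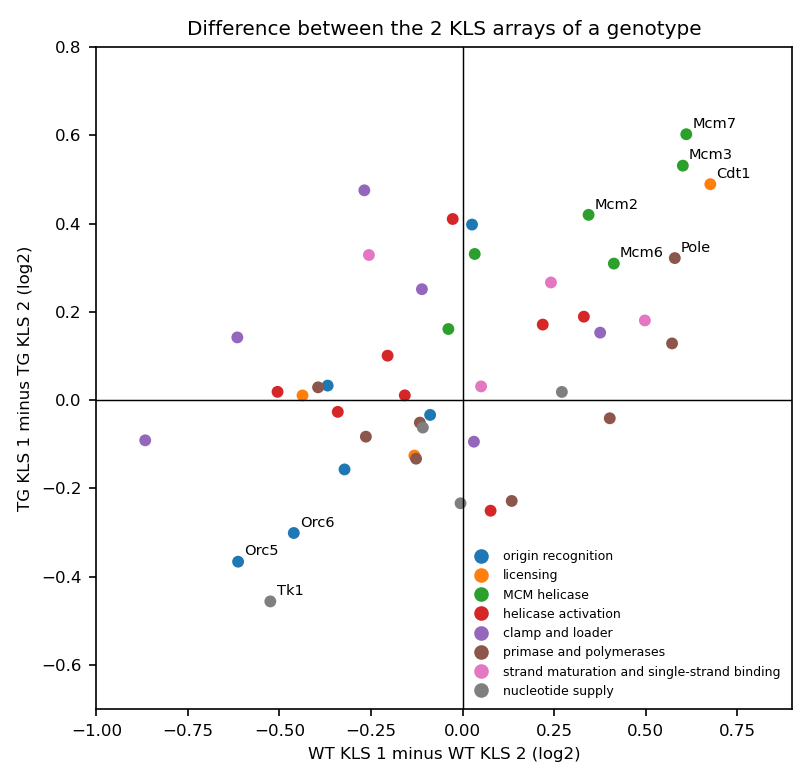
Array 1 minus array 2 on the log2 scale in WT KLS cells (horizontal axis) and in TG KLS cells (vertical axis), with a point for each of the 45 genes, coloured by role. The points slope upward (r = 0.554), with Mcm3, Mcm7 and Cdt1 at the upper right and Orc5 and Tk1 at the lower left.

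Other genes of the pathway were read from lists of further fork and cell cycle factors. Of 26 other fork and licensing genes, 21 were below 0 in KLS minus MEP, against 46.5% of all genes, with a median of -0.19. For 8 all KLS arrays lay below all MEP arrays, against 4.63% of all genes, and 0 passed the limma test. These shares of all genes apply to the further lists below as well. The smallest p belonged to Wdhd1, a replisome scaffold that links the helicase to polymerase alpha, at -0.47 ± 0.10 (SE, limma adjusted p 0.0597). Mtbp, a partner of the origin firing factor Treslin, was at -0.49, and Top2a, the topoisomerase that untangles replicated DNA, at -0.36.

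Of 18 E2F and S-phase entry genes, 15 were below 0, with a median of -0.18, and 0 passed. Ccne2, cyclin E2, which drives entry into S phase, read 8.51 and 9.04 in WT KLS, 9.04 and 9.24 in TG KLS, 9.48 and 9.52 in WT MEP, and 9.66 and 9.78 in TG MEP cells. Its arrays were separate, and the difference of -0.65 ± 0.13 (SE) had a limma adjusted p of 0.0506. Ccna2, the S-phase cyclin A2, was at -0.41 (limma adjusted p 0.0645), and Rb1, the retinoblastoma brake on E2F, was at -0.56 (0.0692), so that the brake and the cyclins had the same sign.

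Of 8 measured chromatin assembly and maintenance genes 6 were below 0, with a median of -0.21, and 0 passed; those with the smallest p were the histone chaperone genes Nasp at -0.34, Asf1b at -0.28 and Supt16 at -0.27. The 15 other nucleotide synthesis genes did not share the shift, with 8 below 0 and a median of -0.03. Dctpp1, which hydrolyses dCTP and cleans the nucleotide pool, was the 1 gene of these lists that passed, and it was higher in KLS cells. It read 10.50 and 10.40 in WT KLS, 10.47 and 10.11 in TG KLS, 9.86 and 9.60 in WT MEP, and 9.43 and 9.64 in TG MEP cells, a difference of 0.74 ± 0.12 (SE, limma adjusted p 0.0356). Ctps, CTP synthase, was at -0.27 and Ppat, which opens purine synthesis, at -0.23. Mitosis genes lay below 0 for 8 of 8 measured, with a median of -0.26, and 0 passed. At an unadjusted p under 0.05, 9 of the 26 other fork and licensing genes, 7 of the 18 E2F and S-phase entry genes, 2 of the 8 chromatin genes and 3 of the 8 mitosis genes were lower in KLS cells, against 6.24% of all genes, as was 1 of the 15 other nucleotide synthesis genes. At the same p, Dctpp1 and Pold4, a small polymerase delta subunit, at 0.52, were higher. Between genotypes 0 genes of these lists passed in either cell type.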

How the data were processed

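RNA of 8 preparations was measured on 1 Affymetrix array each. The authors deposited log2 values made with Affymetrix Expression Console, per the submitters' processing notes; the summarization and scaling steps are named in no source used here, and the log2 scale was read from the values. The 8 medians spanned 0.106, over the 0.1 allowed, so arrays were quantile normalized, which assumes equal value distributions. Of 35556 probe sets, 21789 had 1 gene symbol, and the brightest per gene gave 19938 genes.

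A mean per group was fitted over all 8 arrays with limma 3.58.1 (lmFit, contrasts.fit, eBayes) in R 4.3.3, tested on simulated data first. Tests were two-sided, with Benjamini-Hochberg adjustment over all genes and a threshold of 0.05. Groups and replicate numbers came from sample titles. Nothing says more of the replicates than that preparations were independent. Arrays have no depth, and their number limits the precision. Alternatives were other scaling, dim genes left out, probe sets averaged, an intensity trend, a replicate block, fits on fewer groups and each array left out.

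The members and the gene lists were chosen with earlier results of these data known. Genes named with values on every array were those passing in KLS minus MEP, filled to 10 by p, the 3 of smallest p in each other contrast, the smallest and largest p of each role, and the 3 of smallest p per further list; for the rest only differences or ranges are given, save those of the replicate pattern, chosen after their values were seen. Replicate numbers were not taken to pair the samples, since not every pair of groups had a correlation of deviations over 0.1: over all genes the pairs among WT KLS, TG KLS and WT MEP had 0.180 to 0.385, and those with TG MEP -0.284 to -0.173.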

Additional observations from a re-analysis of the deposited data

How the results depend on the processing

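Counts below 0, counts of separate arrays and counts above 0 were chosen after seeing the data. Between KLS and MEP cells, 38 to 42 of the 45 genes were below 0 under every alternative run, and the median moved by less than the spread between replicates. The number of genes that passed was 1, and it was 0 with median centring, 0 with WT arrays alone and 0 with TG arrays alone, where fewer arrays entered the fit. It was 2 with the replicate number as a block (Orc1 and Orc5), and 0 to 2 when each array was left out. The adjusted p of Orc5 was then 0.0408. As the numbers were not taken to pair the samples, the block is given here only. The count of separate arrays was 11 with median centring and 18 to 24 when each array was left out. It was 26 with WT arrays alone and with TG arrays alone, where 2 arrays face 2 and more of all genes separate too. Those counts are therefore not on the same scale. Why median centring gave fewer was not tested. For TG minus WT in MEP cells the count above 0 was 13 as deposited, 11 with median centring and 18 to 34 when each array was left out. The median TG minus WT in KLS cells was 0.21 with median centring, and the median interaction was 0.22 as deposited and 0.28 with median centring. The number of genes that passed between genotypes was 0 under every alternative run.

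Small differences reversed in KLS minus MEP, given here for the genes named by the rule and Rfc1. With WT arrays alone these were Rfc5 at 0.0076, Pold2 at 0.0087 and Tk1 at 0.21, and with TG arrays alone Mcm3 at 0.0045, Gins4 at 0.0032 and Rfc1 at 0.0145. When each array was left out, the range was -0.118 to 0.0521 for Gins4, -0.236 to 0.0651 for Mcm3, -0.177 to 0.0215 for Orc3, -0.131 to 0.0751 for Pold2, -0.172 to 0.0653 for Rfc5 and -0.149 to 0.114 for Tk1. With 2 arrays per group, the precision within a cell type is low, and no depth can be given.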
